A study of Mus musculus with 6 samples.

Results

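Bc1, the 7SK RNA Rn7sk, the 7SL loci Rn7s2 and Rn7s6, the 5.8S ribosomal RNA locus n-R5-8s1 and the microRNA gene Mir6236 were described in 6 RNA sequencing libraries of mouse prefrontal tissue (PFC in the labels). They are 6 genes of the 53640 symbols that all 6 count tables share, and 6 of 6 passed the filter on low counts that left 20694 genes for testing. Bc1, Rn7s2, Rn7s6 and n-R5-8s1 were chosen because their counts are lower in the tables of treated animals, and Rn7sk and Mir6236 were added as abundant or structural RNAs of the same kind. Their levels in the treated libraries are therefore given as a description, with no test. Bc1, 7SK and 7SL have relatives among annotated transcripts, and 5.8S RNA is made from repeated ribosomal units, so a count at 1 locus can hold reads of another copy. Copies of Mir6236 outside annotated transcripts were not counted, so whether its reads come from that locus was not tested.

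All animals were 6 months old, and total RNA of whole PFC lysate was sequenced after removal of ribosomal RNA. The control group is of C57BL/6 x C3H background and received vehicle (2 libraries). The tau group is PS19(P301S), a line expressing human P301S tau from the mouse prion protein promoter, and also received vehicle (2 libraries). The treated tau group is of the same PS19(P301S) genotype and received WDR5-0103 (2 libraries), an inhibitor of WDR5, the protein on which histone H3 lysine 4 methyltransferase complexes assemble. The labels call the libraries of a group biological duplicates and say no more on their animals, so p-values measure the spread between these libraries.

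Most of these RNAs are short transcripts of RNA polymerase III. Bc1 is a rodent RNA that arose by retroposition of an alanine tRNA, is carried into the dendrites of neurons and represses translation there. Its first part is the source of the rodent ID repeats scattered through the genome. The 7SK RNA holds the elongation factor P-TEFb in an inactive particle with Larp7, Mepce and Hexim proteins. The 7SL RNA is the scaffold of the signal recognition particle, which docks ribosomes making secreted proteins on the endoplasmic reticulum, and it is the ancestor of the B1 repeats of rodents. The 5.8S RNA is a part of the large ribosomal subunit, cut from the ribosomal precursor that RNA polymerase I makes from long tandem arrays.

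The sequences that carry the multi-copy origin are shown first, taken from the GENCODE M21 transcripts of the mm10 assembly and written 5′ to 3′. Bc1 (chromosome 7, bases 144914470 to 144914637, plus strand, 168 bases, an intergenic noncoding RNA with no intron) is shown because its repeat part can be seen in it. Capitals mark bases 1 to 86, which lie in stretches of 50 bases that occur unchanged in another annotated gene.
Bc1: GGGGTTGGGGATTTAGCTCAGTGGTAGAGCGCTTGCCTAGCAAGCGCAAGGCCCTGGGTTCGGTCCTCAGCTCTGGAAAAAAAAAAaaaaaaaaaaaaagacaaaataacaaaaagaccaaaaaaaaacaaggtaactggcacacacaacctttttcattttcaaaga
The lower-case part, with the A-rich middle and the unique 3′ end, sets Bc1 apart from the other genes. In all, 31.1% of the 50-base words of Bc1 occur elsewhere, and 31 annotated genes hold a copy of at least 80% identity over at least 50% of its length. RefSeq gives Bc1 a length of 154 bases.

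Rn7s2 (chromosome 12, bases 69361182 to 69361481, minus strand, 300 bases) has a transcript identical, base for base, to that of Rn7s1 (chromosome 12, bases 69159295 to 69159594, plus strand). Rn7s6 lies on chromosome 6, bases 69516339 to 69516629, plus strand, and has 291 bases, of which the first 214 align with Rn7s2 at 98.6% identity. Gm26461 aligns over 201 bases at 96.5% identity and Gm24105 over nearly the whole transcript at 91.7%. Each 50-base word of Rn7s2 occurs in another gene (100%), against 51.2% of those of Rn7s6. Past the aligned part, Rn7s6 and Gm26461 no longer align with Rn7s2, so reads there can be told from Rn7s2, and reads from a part that is the same in both cannot.

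Rn7sk (chromosome 9, bases 78175303 to 78175633, minus strand, 331 bases) has 34 annotated relatives of at least 80% identity over at least 50% of its length, and 68.1% of its 50-base words occur in another gene. Its first 100 bases are shown as a part of its sequence. Bases shared with relatives are not marked in it, so it is not shown as particular to Rn7sk.
Rn7sk: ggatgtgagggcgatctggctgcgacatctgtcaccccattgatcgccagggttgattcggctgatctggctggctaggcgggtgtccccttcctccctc
Mir6236 (chromosome 9, bases 110281287 to 110281409, plus strand, 123 bases) is a microRNA gene whose mature form, mmu-miR-6236 in RefSeq, spans bases 110281353 to 110281371. Its seed, bases 2 to 8, is in capitals.
mmu-miR-6236: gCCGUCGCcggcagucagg
The library protocol sequences fragments of long RNA, so counts at this gene are reads over the 123-base locus and say nothing of the 19-base mature microRNA. None of its 50-base words occurs in another annotated transcript (0%). That search does not include the ribosomal arrays, so the 0% does not show that the sequence has 1 copy.

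Several facts about the libraries precede the results. Total counts ran from 17690811 in tau 2 to 34774643 in treated tau 1. The tables of the 4 vehicle libraries hold 54429 symbols and those of both treated libraries 54134, so they were made with different gene lists, and the gene list and the treatment cannot be told apart. Ddx3y, on the Y chromosome, was at 91.2 to 108 CPM (counts scaled to library size with TMM factors) in both treated tau libraries and at 95.2 in the library labelled control 1, and at 0.115 to 0.391 in the other 3. Sex and treatment therefore cannot be told apart between treated tau and tau. The library labelled control 1 also has Prnp at 1654 CPM, within the 1472 to 1876 of the transgenic libraries and above the 876 of control 2, and the summed level of 4 olfactory bulb markers at 90.4 CPM against 2.87 to 5.41 elsewhere. Summed striatal markers (6 genes) were highest in tau 2, at 124 CPM against 48.8 to 77.4. Summed oligodendrocyte markers (6 genes) were also highest in tau 2, at 4341 CPM against 1182 to 2396 in the other libraries. Their part in the results was not tested, and results that rest on the library labelled control 1 or on tau 2 are given with and without it.

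Rn7sk, the RNA of the 7SK particle, was the most abundant gene in every library and took 1.61% to 1.78% of all counts. It had 15497 and 16209 CPM in control and 17649 and 17975 in tau, against 17942 and 17717 in treated tau. The treated tau libraries lay within the range of the tau libraries, and both groups lay above control. The log2 fold change of tau against control was 0.17 ± 0.06 (SE), with an adjusted p of 0.441 in the quasi-likelihood test of edgeR. For treated tau against tau it was 0.00 ± 0.06, and for treated tau against control 0.17 ± 0.06.

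Bc1, the dendritic RNA, was the third most counted gene in control 2 and in both tau libraries and the fifth in the library labelled control 1. It had 2782 and 4381 CPM in control and 4769 and 5342 in tau, against 116 and 146 in treated tau, from 70497, 111773, 121942, 93213, 3979 and 3914 counts. Both treated tau libraries lay far below the other 4, and both tau libraries lay above both control libraries. In treated tau Bc1 ranked 2007 and 1582 among all genes by counts. Its log2 fold change was -5.27 ± 0.22 (SE) for treated tau against tau and -4.77 ± 0.21 against control, a mean level 38.6-fold and 27.3-fold lower. Fewer cells of a type and less RNA per cell cannot be told apart in bulk tissue. Treatment also cannot be told apart from the gene list of the tables or, between treated tau and tau, from sex.

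**Figure D1:**
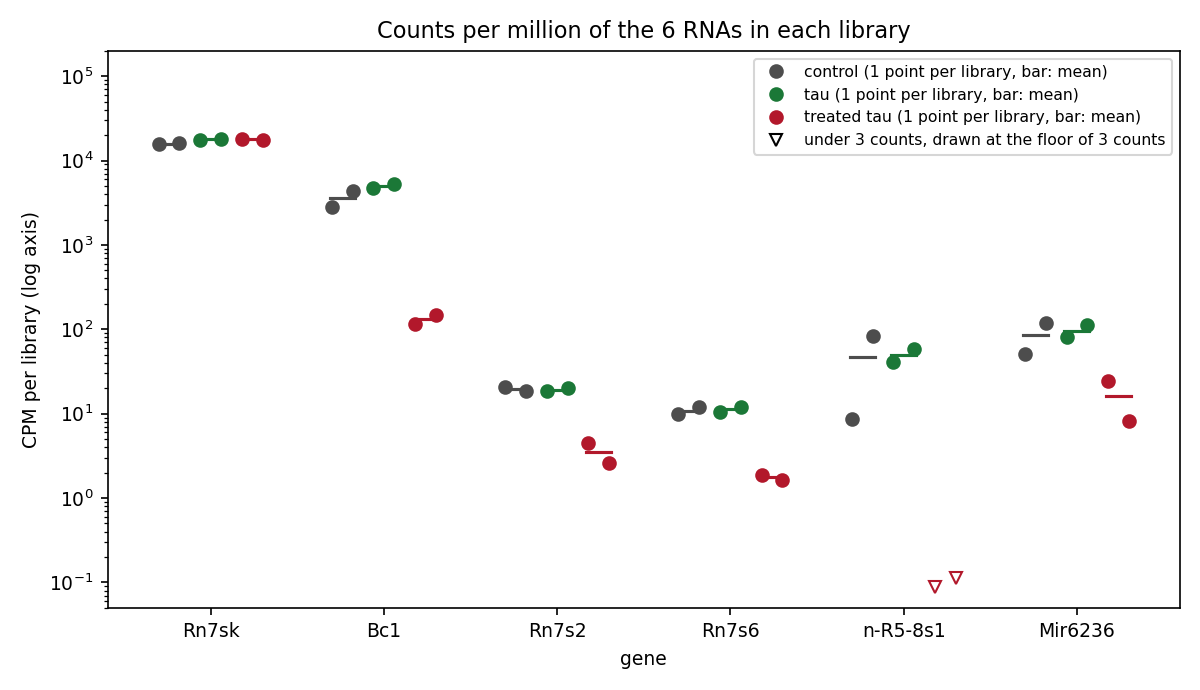
CPM of each of the 6 genes on a log axis, with 1 point per library and a bar at the group mean; open triangles are libraries under 3 counts, drawn at the floor of 3 counts. Rn7sk stays between 15497 and 17975 CPM, while Bc1 stands at 116 and 146 CPM in treated tau against 2782 to 5342 in the other libraries, and n-R5-8s1 has no counts there.

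Per kilobase of transcript, Rn7sk was at 46820 to 54305 CPM over the 6 libraries. Bc1 was at 16561 to 31799 CPM per kilobase in the 4 vehicle libraries and at 692 and 869 in treated tau. For every 100 counts of Rn7sk there were 18.0, 27.03, 27.02 and 29.7 counts of Bc1 in the library labelled control 1, control 2, tau 1 and tau 2. The same ratio was 0.648 and 0.824 in treated tau 1 and treated tau 2. This ratio between a pair of polymerase III transcripts needs no scaling of the libraries, and its treated values do not overlap with the rest.

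The cells that make Bc1 are neurons, and the summed level of 8 excitatory cortical neuron markers, all 8 of them tested, was 1622 and 1659 CPM in treated tau, 1489 and 1434 in tau, and 1422 and 1603 in control. Those of 6 inhibitory interneuron markers were 675 and 658 CPM in treated tau, 651 and 734 in tau, and 786 and 615 in control. The part of these sums in the Bc1 values was not tested. Oraov1, the coding gene whose annotated end is nearest to Bc1 (463 bases away, LTO1 in GENCODE), had 14.6 and 13.7 CPM in control and 15.9 and 17.3 in tau, against 14.5 and 15.4 in treated tau. Its adjusted p was 0.759 for treated tau against tau.

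Of the 31 genes that hold a copy of the first part of Bc1, 26 were tested, and edgeR called 1 higher and 0 lower in treated tau against tau, where 3.09% of all genes tested were called higher and 0.677% lower. Their median log2 fold change was 0.02, beside -0.01 over all genes. Kif3a, a kinesin motor subunit, had 180 and 180 CPM in control and 196 and 184 in tau, against 183 and 195 in treated tau. Akap5, a synaptic anchoring protein of protein kinase A, had 160 and 214, 199 and 193, and 188 and 193 CPM in the same order. The gene called higher was Elp6, a subunit of the Elongator complex, at 10.2 and 9.56 CPM in control and 11.7 and 7.45 in tau, against 58.9 and 51.5 in treated tau, with an adjusted p of 3.84e-05. These genes were named after their values were seen.

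Rn7s2, one of the annotated 7SL genes, had 20.5 and 18.8 CPM in control and 18.3 and 20.1 in tau, against 4.501 and 2.57 in treated tau. The 4 vehicle libraries agreed closely and both treated tau libraries lay below them. The log2 fold change was -2.40 ± 0.21 (SE) for treated tau against tau and -2.44 ± 0.21 against control. Rn7s6 had 9.91 and 11.9 CPM in control and 10.4 and 11.98 in tau, against 1.90 and 1.64 in treated tau. It too was lower in both treated tau libraries with no overlap, and its log2 fold changes were -2.64 ± 0.22 and -2.61 ± 0.21.

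Rn7s1, whose transcript cannot be told from that of Rn7s2, had higher values in treated tau. It had 4.30 and 4.51 CPM in control and 4.18 and 4.53 in tau, against 6.17 and 6.67 in treated tau, from 109, 115, 107, 79, 211 and 179 counts. The treated tau libraries were above the other 4, with an adjusted p of 0.229 against tau. For each count of Rn7s1 there were 4.17 to 4.76 counts of Rn7s2 in the 4 vehicle libraries, and 0.730 and 0.385 in treated tau 1 and treated tau 2. Because the sequences are the same, a read that lies inside either locus fits both, and how such reads were shared out is not given in the sources used here.

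Other 7SL loci moved in both directions. Gm26461 rose from 5.63 and 5.22 CPM in tau to 19.4 and 18.0 in treated tau (log2 fold change 1.78 ± 0.15, adjusted p = 0.00014). Gm24514 fell from 11.3 and 9.74 CPM in tau to 2.66 and 2.54 in treated tau (log2 fold change -2.03 ± 0.20, adjusted p = 0.000359). Gm24105 had 198, 269, 224 and 174 counts in the 4 vehicle libraries and 2 and 0 in treated tau, and it was called lower (adjusted p = 1.08e-05). Of the 11 annotated 7SL relatives other than Rn7s2 and Rn7s6, 4 were tested and 3 had no counts in any library. Of the 4, 1 was called higher and 2 lower, beside 3.09% and 0.677% of all genes tested.

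Summed over the 13 loci, 7SL stood at 57.03 and 62.0 CPM in control and 59.5 and 62.0 in tau, against 34.7 and 31.6 in treated tau. The sum was 33.2 ± 2.22 CPM in treated tau and 60.7 ± 1.75 in tau (SD, n = 2 libraries each), a ratio of 0.546. For Rn7s1 and Rn7s2 together, which no placement of reads between them can change, the values were 24.8, 23.3, 22.5, 24.6, 10.7 and 9.25 CPM in the order of the groups. That joint level is 0.422 of tau and 0.414 of control, a smaller difference than that of Rn7s2 alone, whose treated mean is 0.184 of tau. Gm26461 held 55.9% and 57.1% of the 7SL counts in treated tau against 7.91% to 9.47% in the other libraries, and Rn7s2 held 13.0% and 8.15% against 30.4% to 35.9%.

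**Figure D2:**
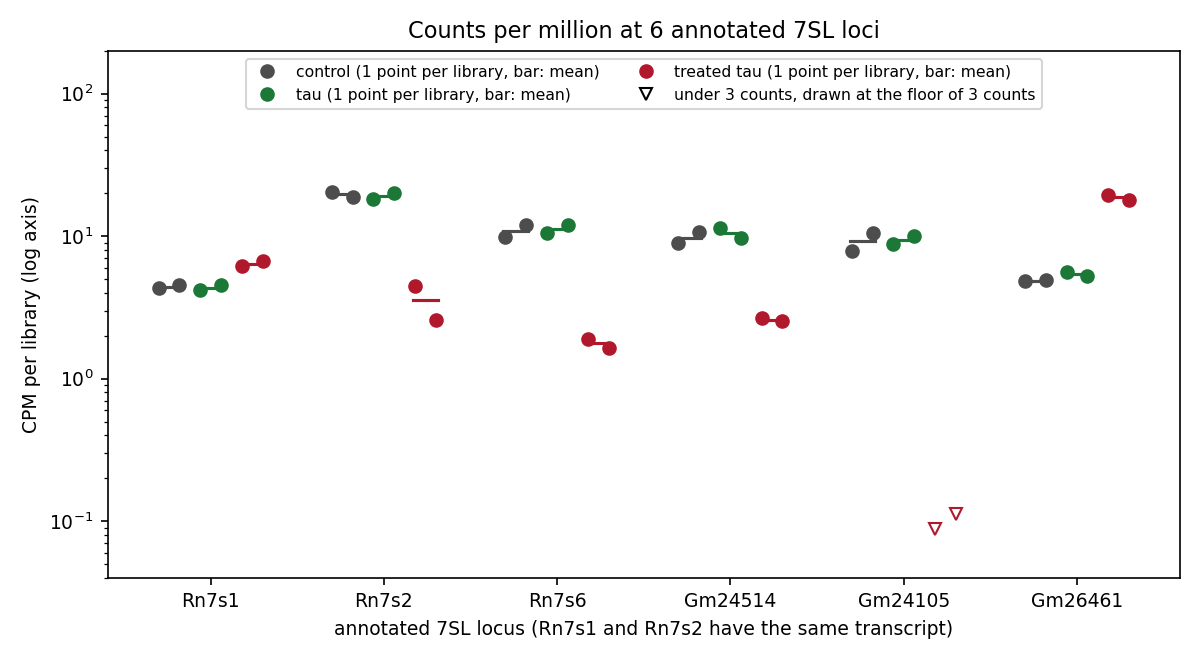
CPM at 6 annotated 7SL loci on a log axis, with 1 point per library and a bar at the group mean; open triangles are libraries under 3 counts, drawn at the floor of 3 counts. Rn7s1 and Rn7s2 share 1 sequence, yet Rn7s2 has 4.501 and 2.57 CPM in treated tau and Rn7s1 has 6.17 and 6.67, and Gm26461 is at 19.4 and 18.0 CPM.

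Annotated relatives of 7SK were lower in treated tau where they were called. Of the 34 annotated relatives 16 had no counts in any library and 9 were tested. Of these 9, edgeR called 0 higher and 4 lower in treated tau against tau, beside 3.09% and 0.677% of all genes tested. Gm24447, whose aligned part is identical to Rn7sk (100% over 72.8% of the length of Rn7sk), had 9.98 and 16.2 CPM in control and 15.5 and 13.3 in tau, against 4.85 and 4.47 in treated tau (log2 fold change -1.63 ± 0.24, adjusted p = 0.00408). Gm26035 had 8.29 and 7.39 CPM in tau and 1.96 and 1.98 in treated tau (adjusted p = 0.000484). Gm24146 and Gm26315 were not called, with 4.76 and 5.03 and with 2.28 and 3.13 CPM in treated tau against 8.56 and 6.65 and against 3.64 and 3.09 in tau.

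Together the 34 relatives held 2.01 to 2.45 counts for every 1000 counts of Rn7sk in the 4 vehicle libraries and 0.875 and 0.934 in treated tau. The 2 treated values lie below the other 4, beside a log2 fold change of 0.00 ± 0.06 for Rn7sk itself. A read that fits both the parent and a copy cannot be assigned by its sequence, and the part of such reads in these values was not tested.

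The 5.8S locus n-R5-8s1 (chromosome 18, bases 73533403 to 73533550, minus strand, 148 bases) had 222 counts in the library labelled control 1, and control 2 had 2144. It had 1046 and 1018 counts in the tau libraries and none in treated tau 1 or treated tau 2. In CPM these were 8.76, 84.0, 40.9, 58.3, 0 and 0. The 2 control libraries differed more from each other than either differed from tau, and the treated tau libraries had no read. With 3 counts per library as the floor, its level in treated tau was at least 497-fold lower than in tau and at least 465-fold lower than in control, or at least 87.5-fold lower than in the library labelled control 1 alone and 840-fold lower than in control 2 alone. It was the 1 symbol of 53640 with at least 100 counts in each of the 4 vehicle libraries and none in both treated tau libraries, and 0 symbols showed the reverse. The gene was chosen on its fall in treated tau, so nothing is read from that. The rule asks for exactly 0 counts, and Gm24105 came near it with 174 to 269 counts in the vehicle libraries and 2 and 0 in treated tau. The treated tables also use another gene list.

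The 5.8S sequence is present in each unit of the ribosomal arrays and n-R5-8s1 is 1 annotated locus, with 0% of its 50-base words in another annotated transcript, in a search without these arrays. The libraries were depleted of ribosomal RNA, and how much each library kept was not measured here. CT010467.1, an annotated ribosomal RNA gene named here after its values were seen, had 535 and 2704 CPM in control and 1711 and 2813 in tau, against 4476 and 801 in treated tau. Its groups overlapped, treated tau 1 was the highest library and treated tau 2 lay below both tau libraries, and its adjusted p was 0.961 for treated tau against tau. Gm26917, a noncoding gene also named after its values were seen, had 1925 and 1656 CPM in control and 1464 and 1521 in tau, against 1247 and 1443 in treated tau. The library labelled control 1 was its highest and the lower of the control values for n-R5-8s1, CT010467.1 and Mir6236, and Gm26917 was called lower in treated tau against control (adjusted p = 0.0359).

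Mir6236 had 50.8 and 118 CPM in control and 80.3 and 112 in tau, against 24.6 and 8.09 in treated tau. Both treated tau libraries were below the other 4, and they differed from each other. The log2 fold change was -2.52 ± 0.47 (SE) for treated tau against tau and -2.34 ± 0.47 against control, with the widest error of the 5 genes that had reads in treated tau. Against control it was -1.60 without control 2, -2.82 without the library labelled control 1, and -3.38 without treated tau 1. Against tau it was -3.56 without treated tau 1 and -1.96 without treated tau 2. The reads at Mir6236 may include those of copies elsewhere, so the other microRNA genes are given as values and not as its like. Of these in the tables, 41 were tested in treated tau against tau, where edgeR called 3.09% of all genes tested higher and 0.677% lower. Of the 41, 0 were called by edgeR, 0 had an unadjusted p under 0.05 and 0 were called by DESeq2. Their median log2 fold change was -0.11, with 26 negative and 15 positive. Against control the median was -0.32, beside -0.01 over all genes, with 33 negative and 8 positive. There edgeR called 0 of the 41, beside 3.32% of all genes tested called higher and 0.899% lower. In that comparison 2 had an unadjusted p under 0.05 and DESeq2 called 0.

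In all, 5 of the 6 genes were lower in both treated tau libraries than in any other library. The share of all genes tested with that pattern was not counted. The shares that edgeR called lower, 0.677% against tau and 0.899% against control, are a stricter measure and cannot be set against it. The genes were chosen on their treated tau values, so nothing is read from the count of 5. Ranked by log2 fold change against tau from the lowest, Bc1 was 17 of 20694, Rn7s6 63, Mir6236 71, Rn7s2 80 and Rn7sk 10675.

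Few other structural RNAs were tested or called. Of 13 tested on a list of 234 symbols, 1 was called higher and 1 lower in treated tau against tau, beside 3.09% and 0.677% of all genes tested, and their median log2 fold change was 0.03, unchanged with Rpph1 set at its bound. Rprl3, an RNase P RNA-like gene, rose from 55.5 and 52.6 CPM in tau to 114 and 131 in treated tau (log2 fold change 1.17 ± 0.10, adjusted p = 0.000172), and it was called higher against control too, where 3.32% of all genes tested were. Rpph1, the RNase P RNA itself, had 4 to 17 counts in the vehicle libraries and 0 in treated tau (adjusted p = 0.0278 against tau and 0.110 against control). It is the 1 called lower. With so few counts it could pass the low-count filter only through libraries where it has reads, so nothing is read from its call.

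The Y RNAs are polymerase III transcripts bound by the Ro protein. Rny1 had 38.6 and 61.9 CPM in control and 69.1 and 66.8 in tau, against 58.0 and 47.3 in treated tau (adjusted p = 0.507 for treated tau against tau). Rny3 had 18.1 and 50.2, 34.5 and 31.6, and 45.7 and 21.3 CPM in the same order, and its groups overlapped (adjusted p = 0.993). Rnu3a, the U3 RNA of ribosomal processing, had 6.87 and 12.9, 10.01 and 10.3, and 6.02 and 4.81 CPM, below tau in both treated libraries but not called (adjusted p = 0.179). Of 25 small nucleolar and Cajal body RNAs tested, 0 were called in treated tau against tau by edgeR, beside 3.09% of all genes tested called higher and 0.677% lower. Of the 25, 1 had an unadjusted p under 0.05 and 1 was called by DESeq2. Their median log2 fold change was -0.18, beside -0.01 over all genes, with 19 negative and 6 positive.

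**Figure D3:**
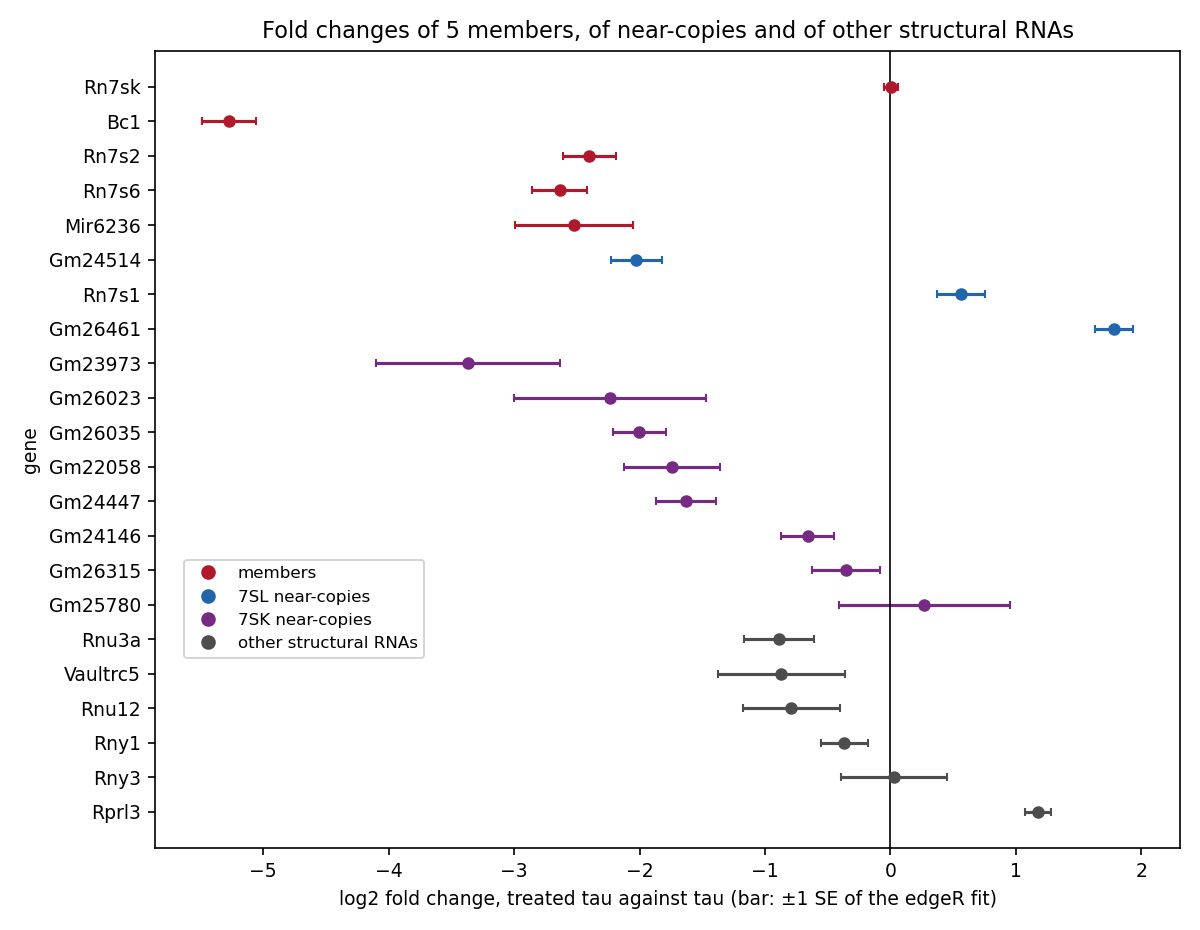
Log2 fold change of treated tau against tau with bars of 1 SE for the 5 members with reads in treated tau, for tested relatives of 7SL and 7SK and for other structural RNAs with a mean of at least 1 CPM; genes with 3 or fewer counts in treated tau are left out. Bc1 stands at -5.27 and Rn7sk at 0.00, and the 7SL loci span from -2.64 for Rn7s6 to 1.78 for Gm26461.

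Calls were then counted by transcript length. Without the 6 described here, 287 genes under 400 bases that are not pseudogenes were tested in treated tau against tau, with 3 called higher and 13 lower (4.53%). Of 326 pseudogenes of that length, 88 were called higher (26.99%) and 2 lower. Among genes of 400 bases or more, 540 of 19938 were called higher (2.71%) and 119 lower (0.597%). Genes with more than 5% of their 50-base words elsewhere, leaving out the members, were called higher in 7.30% and lower in 1.78% of 6243 cases, against 1.22% and 0.161% of 14306 genes at or under that limit. These shares are descriptions, with no test between the classes.

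The proteins that work with these RNAs were next compared, from lists written with earlier results of these data known. For the polymerase III machinery, 30 genes were tested in treated tau against tau, where edgeR called 3.09% of all genes tested higher and 0.677% lower. Of the 30, edgeR called 0, 1 had an unadjusted p under 0.05 and DESeq2 called 0. Their log2 fold changes ran from -0.22 to 0.17 with a median of 0.00, beside -0.01 over all genes. Gtf3c3 and Gtf3c1, subunits of the factor that binds internal promoters of polymerase III, had the smallest p-values, with 66.4 and 72.5 CPM in tau and 59.2 and 60.1 in treated tau for the first, and 160 and 170 against 180 and 189 for the second (adjusted p = 0.343 and 0.450).

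The signal recognition particle proteins and receptor gave 9 tested genes and 0 calls by edgeR, 2 at an unadjusted p under 0.05 and 0 by DESeq2 in treated tau against tau, with a median log2 fold change of -0.01. Srp54c, a copy of the subunit that binds signal peptides, had 14.2 and 11.9 CPM in tau and 8.21 and 9.40 in treated tau (adjusted p = 0.150), and it has near-identical sister genes. For the 7SK particle and P-TEFb, 7 genes were tested and 0 were called by edgeR, 0 at an unadjusted p under 0.05 and 0 by DESeq2, with a median of 0.06. Of all genes tested, edgeR called 3.09% higher and 0.677% lower, so 0 calls in lists of 7 and 9 genes say little about them. Larp7, the protein that protects the 3′ end of 7SK, had 20.9 and 15.6 CPM in tau and 14.4 and 14.9 in treated tau (adjusted p = 0.431).

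Among 11 partners of Bc1 in translation, 0 were called higher and 1 lower in treated tau against tau, beside 3.09% and 0.677% of all genes tested. Eif4a1, the helicase that Bc1 inhibits, fell from 72.0 and 70.7 CPM in tau to 51.4 and 55.0 in treated tau (log2 fold change -0.42 ± 0.09, adjusted p = 0.0292), and in control it had 62.8 and 58.2. Pabpc1, the poly(A)-binding protein, was the 1 called against control, where 0.899% of all genes tested were called lower, falling from 59.6 and 60.9 CPM to 46.9 and 44.6 (log2 fold change -0.40 ± 0.09, adjusted p = 0.0362). Of 18 genes of ribosomal RNA transcription and processing, 0 were called higher and 2 lower in treated tau against tau, beside 3.09% and 0.677% of all genes tested. Fbl, the methyltransferase of the box C/D particles, fell from 5.48 and 4.30 CPM in tau to 1.75 and 2.05 in treated tau (log2 fold change -1.40 ± 0.26, adjusted p = 0.0158). Npm1, a nucleolar chaperone, fell from 85.7 and 87.5 CPM in tau to 62.4 and 59.1 in treated tau (log2 fold change -0.51 ± 0.08, adjusted p = 0.00705). Against control, edgeR called Fbl lower (adjusted p = 0.0387) and did not call Npm1 (adjusted p = 0.177).

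**Figure D4:**
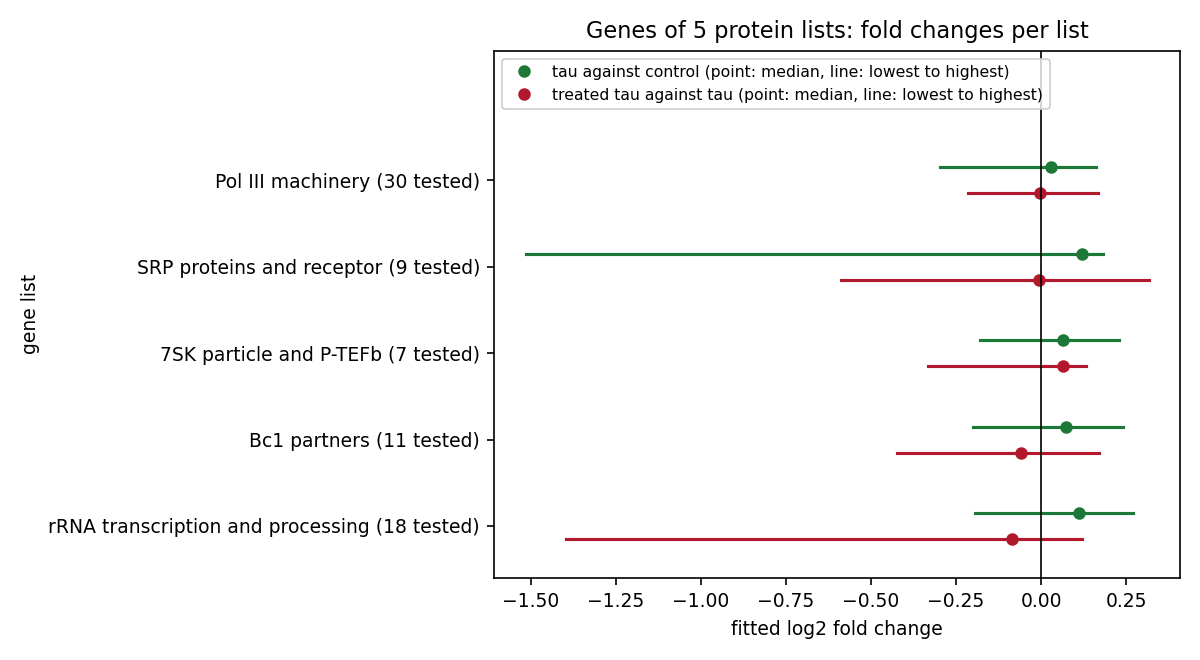
Fitted log2 fold changes of the tested genes of 5 lists, with the median as a point and a line from the lowest to the highest gene, in green for tau against control and in red for treated tau against tau. The medians lie between -0.09 and 0.12 in both comparisons, and the lowest value in treated tau against tau is that of Fbl at -1.40.

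Tau was then compared with control, a comparison that shares the tau libraries with the choice of the genes, and whose scaling and error come from a fit over all 6 libraries. Here 0% of the 20694 genes tested were called by edgeR (2059 had an unadjusted p under 0.05, and DESeq2 called 54). Of the 6 genes, 0 were called by edgeR, 2 had an unadjusted p under 0.05 (Bc1 and Rn7sk) and 0 were called by DESeq2. Bc1 gave a log2 fold change of 0.50 ± 0.18 (SE, adjusted p = 0.451, or 0.549 in a fit of the control and tau libraries alone). Rn7s2 gave -0.04 ± 0.17 (adjusted p = 0.963), Rn7s6 0.03 ± 0.17 (0.969), n-R5-8s1 0.08 ± 0.70 (0.981) and Mir6236 0.18 ± 0.42 (0.904). For each of these last 4 the difference was smaller than its SE, and the SE of n-R5-8s1 and Mir6236 leaves room for differences of either sign.

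The values for n-R5-8s1 and Bc1 rested on the control libraries. Without control 2, leaving the library labelled control 1 as the sole control, Bc1 gave a log2 fold change of 0.86 with an adjusted p of 0.0154 (range over the alternatives 0.0154 to 0.706), and n-R5-8s1 gave 2.49 with 0.00375 (range 0.00375 to 1 over the alternatives that keep both libraries of tau or of control). Without the library labelled control 1, n-R5-8s1 gave -0.77 with 0.348. Without that library and tau 2 it gave -1.04, with no test, since the replicated group that remains has no reads of it. Bc1 kept a positive value in each case, down to 0.13 without that library and tau 2. A fit with 1 library in a group assumes that this library varies like those of the other groups.

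**Figure D5:**
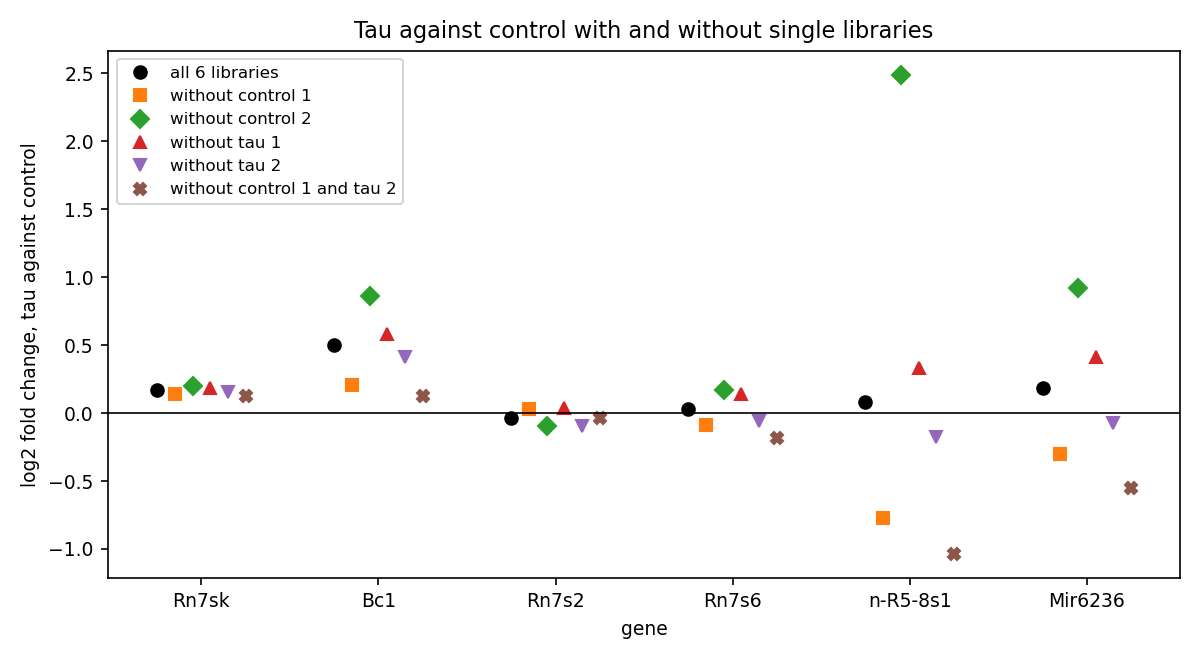
Log2 fold change of tau against control for each gene, fitted over all 6 libraries, with single libraries left out, and with control 1 and tau 2 left out together (1 symbol per fit). With single libraries left out, the n-R5-8s1 values spread from -0.77 to 2.49 and those of Rn7sk from 0.14 to 0.20.

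The genes with a profile most like that of Bc1 over the 6 libraries were found by the root mean square difference of log2 CPM, centred on each gene's mean, among 14521 candidates. They were Capn11 (0.89), a calpain protease, Rps28 (1.01) and Rpl35 (1.13), proteins of the ribosomal subunits, and then Rn7s6 (1.17) and Rn7s2 (1.27). Rps28 had 22.3 and 20.8 CPM in control and 23.2 and 24.9 in tau, against 2.81 and 2.91 in treated tau, and 27.5% of its 50-base words occur in another gene. For Rpl35 that share was 86.2%. The genes most like Rn7sk were the coding genes Arhgef4, Dld, Mpp5, Gdap1 and Prkar1a, with differences of 0.0094 to 0.0164. Like Rn7sk, each was somewhat lower in both control libraries than in any tau or treated tau library.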

How the data were processed

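The authors deposited 1 table of unnormalized read counts by gene symbol for each library, made with TopHat2 on mm10 and featureCounts, per the submitters' processing notes. Per the labels' protocols, libraries were stranded and depleted of ribosomal RNA, and alignment of Cutadapt-trimmed reads was to mouse RefSeq mRNAs. Tool versions, the strand setting and the handling of multi-mapping reads, which bear on multi-copy genes, are not given in the sources here.

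For the 53640 shared symbols, filterByExpr (minimum count 10) and TMM scaling preceded the two-sided quasi-likelihood test of edgeR 4.0.16, run in R 4.3.3 as 1 fit over 6 libraries with 3 residual degrees of freedom. Adjusted p is the Benjamini-Hochberg value over 20694 genes, called under 0.05. The floor of 3 counts covers counting error only. Alternatives were other scalings, filters, DESeq2 1.42.0, a replicate block and leaving out libraries. The sequences of the 7SL loci are not reported here. Positions and other sequences came from GENCODE M21 (mm10), of which 20557 tested symbols matched, and relatives from blastn 2.17.0.

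The genes described and the lists were chosen with earlier results of these data known. Named were all 6 genes, called list members (up to 4 by size, otherwise the 2 of smallest p), structural RNAs of at least 1 CPM, relatives of the 6 genes, and the 5 genes most like Bc1 and Rn7sk, passing over predicted genes.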

Additional observations from a re-analysis of the deposited data

How the results depend on the processing

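In treated tau against tau and against control, Bc1, Rn7s2, Rn7s6 and Mir6236 were negative under each of the 16 alternatives, between -5.44 and -5.11, -2.89 and -2.09, -2.75 and -2.54, and -3.56 and -1.96 against tau. The n-R5-8s1 bound ranged from 409-fold to 584.5-fold against tau and from 87.5-fold to 840-fold against control. Rn7sk stayed between -0.02 and 0.02 against tau. In tau against control, leaving out one library at a time moved Rn7s2 between -0.0971 and 0.0386, Rn7s6 between -0.0913 and 0.167, n-R5-8s1 between -0.769 and 2.49 and Mir6236 between -0.299 and 0.917, so each took both signs. Rn7s2 turned positive without control 1 and without tau 1, and the other 3 turned negative without control 1 and without tau 2. Rn7s6 was -0.01225 with total-count scaling. Without control 1 and tau 2 together, a setting chosen after seeing the data, Rn7s6 was -0.183, n-R5-8s1 -1.04 and Mir6236 -0.554. The count of genes called in tau against control was 54 by DESeq2, 0 to 98 leaving out one library at a time and 130 without control 1 and tau 2. The 98 came without control 2, and without tau 2 the count was 9. Leaving out one library at a time, the count was 355 to 840 in treated tau against tau (355 without tau 1, 504 without tau 2, 429 without treated tau 1 and 423 without treated tau 2) and 494 to 816 in treated tau against control (507 without treated tau 1 and 494 without treated tau 2), with fewer samples in each fit. With the replicate block, the counts were 0, 709 and 796 and no call changed its side for the 6 genes in tau against control. The replicate numbers are those of the titles, while the file headers give tau 1 another number than control 1 and treated tau 1, and they do not pair the samples: deviations of same-numbered libraries correlated at 0.01, -0.01 and 0.07 across genes. Depth limits n-R5-8s1 and the rarer 7SL and 7SK relatives, where a library with no read allows up to 3 counts.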
